A study of Mus musculus with 6 samples.

Results

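Ccng1 and Phlda3 are genes that the transcription factor p53 switches on, and their transcript levels were followed in mouse CD4+ T cells cultured with or without tunicamycin. The 2 genes were found by symbol among the 13685 gene rows of the deposited tables. They were chosen by their counts and TPM in tunicamycin against vehicle in these same 6 libraries, so that difference is described here and carries no test. All 6 libraries came from CD4+ cells of WT C57BL/6 mice, taken from spleen and mesenteric lymph node, and the labels place them all in the same batch. The CD25- cells, a fraction that should hold few regulatory T cells, were cultured for 4 h at 1000000 cells per well. They received either vehicle (3 libraries, titled as not treated) or tunicamycin at 0.15 µg/mL (3 libraries). Per their titles, libraries within a group are technical replicates, and no separate animals are named, so all p-values measure only the spread between these libraries. The age of the mice is not given in the labels.

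Tunicamycin blocks the first step of N-linked glycosylation in the endoplasmic reticulum and is used to bring on the unfolded protein response, the cell's programme for misfolded proteins. p53 is a transcription factor held low by the ubiquitin ligase Mdm2 and stabilised by DNA damage and other stresses, after which it raises genes of cell cycle arrest, cell death, repair and metabolism. Cyclin G1, the product of Ccng1, brings the phosphatase PP2A to Mdm2 and takes part in feedback on p53. The product of Phlda3 consists of little more than a pleckstrin homology domain and competes with the kinase Akt for membrane lipids, so that it restrains Akt.

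Ccng1 (ENSMUSG00000020326) lies on the minus strand of chromosome 11, from 40748552 to 40755311 on build GRCm38. Its coding transcript has 6 exons and 3512 bases, of which 882 encode the 294 residues of cyclin G1 and 2316 form the 3′ UTR. Phlda3 (ENSMUSG00000041801) lies on the plus strand of chromosome 1, from 135766119 to 135769136 on the same build. Its coding transcript has 2 exons and 1435 bases, with a reading frame of 125 codons that lies wholly in exon 1. The GENCODE M21 annotation gives each gene 2 transcripts, 1 of them coding, and places 0 other genes over either one. No other annotated gene had a transcript at least 90% identical to either coding transcript over at least 150 bases. Less identical or shorter matches were found in 411 other genes for Ccng1, the longest over 823 bases, and in 0 for Phlda3.

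The promoters are shown because both genes are known p53 targets. The stretches below come from RefSeq on build GRCm38.p6, and each lies upstream of both the RefSeq and the GENCODE start. The Ccng1 stretch is chr11:40755312-40755536 on the minus strand, and the Phlda3 stretch is chr1:135765835-135766084 on the plus strand. Capitals mark bases that match the p53 full-site consensus, a pair of adjoining half-sites of 10 bases, with at most 1 mismatch over its 20 bases.
Ccng1: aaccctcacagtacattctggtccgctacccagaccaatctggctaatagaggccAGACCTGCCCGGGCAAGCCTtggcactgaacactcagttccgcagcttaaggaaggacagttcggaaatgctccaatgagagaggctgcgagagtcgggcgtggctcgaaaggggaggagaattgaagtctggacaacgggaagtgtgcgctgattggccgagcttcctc
Phlda3: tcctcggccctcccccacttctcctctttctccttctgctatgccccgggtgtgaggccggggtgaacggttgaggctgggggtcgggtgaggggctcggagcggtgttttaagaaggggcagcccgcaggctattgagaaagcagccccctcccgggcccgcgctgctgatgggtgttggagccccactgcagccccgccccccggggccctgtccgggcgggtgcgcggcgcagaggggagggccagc

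The Ccng1 stretch holds 1 such match, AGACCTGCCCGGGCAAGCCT, at chr11:40755462-40755481 on GRCm38.p6. Its second half-site fits the consensus with 0 mismatches and its first with 1, at position 5 counted from the 5′ end. A match to the full site with at most 1 mismatch occurred in 25 of 32851 promoter stretches of 250 bases, or 0.0761%, and an exact half-site in 7.13%. The consensus reads the same on both strands, so both were covered. Phlda3 had 0 half-sites in its stretch, and its closest stretch of 20 bases differed from the full site at 5 positions. These letters are thus not in this window of Phlda3, which says nothing about other places in the gene. The G and C content was 56.4% for Ccng1 and 71.2% for Phlda3, against a median of 52.4% over all stretches.

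Summed estimated counts of the rows analysed ran from 7412151 to 9495725 in vehicle and from 10584276 to 11211270 in tunicamycin, so all tunicamycin libraries held more counts in these rows. The rows are a part of the transcriptome, and these sums are not library depths. Mitochondrially encoded transcripts made up 16.6% to 18.6% of the summed counts in vehicle and 15.5% to 18.1% in tunicamycin. Of 12 CD4 T cell markers 7 had a row, Cd3e and Il7r among them, and their summed level was 3345 to 3663 TPM in vehicle and 3442 to 3713 TPM in tunicamycin. TPM is the level per transcript length and scaled to a fixed sum over the whole library, as the authors deposited it. Cd4 itself was not analysed here. The 1 regulatory T cell marker with a row, Il2ra, encodes CD25 and was at 6.87 to 8.41 TPM in vehicle and 7.74 to 14.05 TPM in tunicamycin. The 1 CD8 T cell marker with a row, Cd8b1, was at 9.47 to 10.8 TPM in vehicle and 10.5 to 11.9 TPM in tunicamycin. Of 10 NK cell markers 5 had a row, 0 of them at 0 counts in every library, and they summed to 9.51 to 10.995 TPM in vehicle and 10.98 to 17.5 TPM in tunicamycin. The log2 fold changes of the 4 NK cell markers tested were all positive (median 0.94), but their groups overlapped and edgeR called 0, with 1 at an unadjusted p under 0.05. The summed level was carried by Prf1, at 0.02, whereas Gzma, the protease granzyme A, went from a mean of 2.05 to 4.60 TPM, at 1.15. The part of these NK cell transcripts in the levels of Ccng1 and Phlda3 was not tested. The 2 B cell markers with a row summed to 0.886 to 1.14 TPM and 0.661 to 1.13 TPM in the respective groups. The 4 plasma cell markers with a row summed to 21.4 to 184 TPM and 26.1 to 191 TPM, and the 6 macrophage markers with a row to 4.08 to 13.2 TPM and 6.40 to 12.03 TPM. In these bulk libraries, fewer cells with a transcript and less RNA per cell cannot be told apart.

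Ccng1 was an abundant transcript and stood lower in every tunicamycin library. In vehicle replicates 1, 2 and 3 its level was 136, 125 and 126 TPM. The tunicamycin libraries of the same numbers held 106, 100.1 and 96.6 TPM. The groups did not overlap, with 19.1 TPM between the lowest vehicle and the highest tunicamycin library. The mean went from 129 ± 6.39 to 101 ± 4.80 TPM (SD, n = 3 each), 21.8% lower. By TPM, Ccng1 lay above 94.4% to 94.8% of the 3613 genes tested in the vehicle libraries and above 92.4% to 93.2% in the tunicamycin libraries. It thus remained among the more abundant of these genes in both groups.

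The estimated counts behind Ccng1 were 7494, 7079 and 8867 in vehicle replicates 1, 2 and 3. They were 8415, 8297 and 7893 in the matching tunicamycin libraries, so the unscaled counts overlapped between the groups. Scaled to CPM (counts relative to the library's scaled total) of the rows analysed, with TMM factors, the values were 1007, 944 and 966 in vehicle and 790, 727 and 714 in tunicamycin. The separation appeared only after scaling for the larger tunicamycin totals, and it was present in both CPM and TPM. The part of the difference in totals was not tested. The vehicle mean was 972 ± 32.2 CPM and the tunicamycin mean 744 ± 40.6 CPM (SD, n = 3 each), and the log2 fold change fitted by edgeR was -0.39. Counting error was small beside this spread: counting alone gives a coefficient of variation of 1.14% in vehicle and 1.10% in tunicamycin, and the libraries varied by 3.31% and 5.46%.

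Phlda3, the lower of the pair by level, was even across vehicle and uneven across tunicamycin. In vehicle replicates 1, 2 and 3 it stood at 3.48, 3.46 and 3.45 TPM. The tunicamycin libraries of the same numbers held 3.24, 1.78 and 1.41 TPM. Tunicamycin replicate 1 lay close to the vehicle libraries, while replicates 2 and 3 lay well below them. The groups did not overlap, but the gap between them was 0.213 TPM. The mean went from 3.46 ± 0.013 to 2.14 ± 0.967 TPM (SD, n = 3 each), 38.1% lower.

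Few reads stood behind Phlda3, with 151, 156 and 195 estimated counts in vehicle replicates 1, 2 and 3. The matching tunicamycin libraries had 186, 108 and 84. Tunicamycin replicate 1, with 3.24 TPM, had an exact Poisson 95% interval of 2.79 to 3.74 TPM, which holds all 3 vehicle values. In CPM its interval was 15.0 to 20.2, below the vehicle values of 20.3, 20.8 and 21.2. It still overlapped the vehicle intervals in CPM, whose lowest bound was 17.2. Whether replicate 1 stood apart from the vehicle values thus depended on the unit. The intervals of replicates 2 and 3, 1.46 to 2.14 TPM and 1.12 to 1.75 TPM, lay wholly below the vehicle intervals, whose lowest bound was 2.94 TPM. These intervals cover counting error only. For the even vehicle values, counting alone gives a coefficient of variation of 7.77%, above the 2.27% seen in CPM. The closeness of the vehicle libraries is therefore tighter than such counts can be relied on to show. In tunicamycin the libraries varied by 45.5% in CPM, against 9.29% from counting. On the CPM scale the vehicle mean was 20.8 ± 0.472 and the tunicamycin mean 11.5 ± 5.24 (SD, n = 3 each), 44.6% lower, with a fitted log2 fold change of -0.85.

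**Figure D1:**
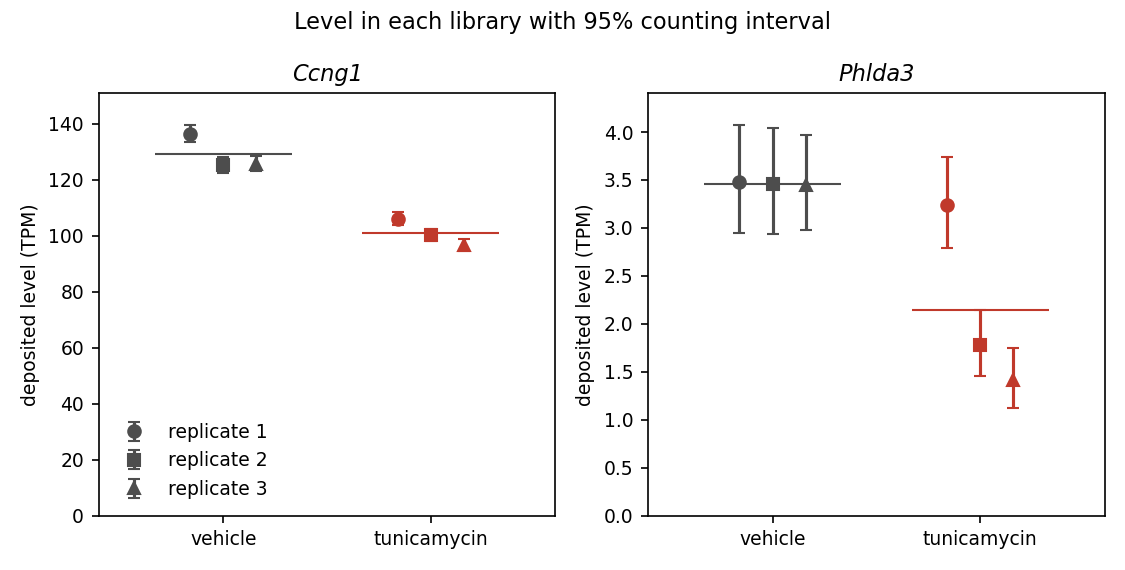
Deposited level in TPM (vertical axis, from 0) of Ccng1 and Phlda3 in each of the 3 vehicle and 3 tunicamycin libraries; symbols mark the replicate number, bars the exact Poisson 95% interval of the counts, and horizontal lines the group means. Ccng1 is lower in all 3 tunicamycin libraries, at 96.6 to 106 TPM, while Phlda3 in tunicamycin replicate 1 (3.24 TPM) sits beside the vehicle libraries.

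Libraries with the same number were also set against each other. For Ccng1 the tunicamycin library was lower in TPM by 22.3%, 20.01% and 23.1% in replicates 1, 2 and 3, so the difference was of like size in all 3. For Phlda3 it was lower by 6.85%, 48.6% and 59.1% in TPM, and by 14.0%, 54.5% and 64.2% in CPM. The libraries numbered 1 differed least in both units. Over all 9 pairings of a tunicamycin with a vehicle library, the log2 CPM difference of Ccng1 ran from 0.26 to 0.50 lower, with at most 0.09 between vehicle libraries and 0.15 between tunicamycin libraries. For Phlda3 it ran from 0.22 to 1.48 lower, with at most 0.07 between vehicle libraries and 1.20 between tunicamycin libraries. The spread within tunicamycin was thus nearly as wide as the widest difference between the groups for Phlda3 and much narrower for Ccng1.

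The pair did not move in step. Ccng1 was 39.3, 36.2 and 36.4 times as high as Phlda3 by TPM in vehicle replicates 1, 2 and 3. The ratio was 32.8, 56.4 and 68.5 in the matching tunicamycin libraries. By TPM it stood below the vehicle ratios in replicate 1 and above them in replicates 2 and 3, and no ratio was taken in CPM. Phlda3 in tunicamycin replicate 1 had a counting interval of 2.79 to 3.74 TPM, so the direction of the ratio there is not secure. Without tunicamycin replicate 1 the fitted log2 fold change of Phlda3 was -1.28, over 1.5 times that with all 6 libraries, and without tunicamycin replicate 3 it was -0.62. For Ccng1, leaving out each library in turn gave -0.43 to -0.36.

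The ratio of deposited count to TPM follows the length over which the reads of a gene were spread, and it was compared after removing each library's median. For Ccng1 its log2 deviation (mean ± SD, n = 3) was -0.01 ± 0.01 under vehicle and 0.0071 ± 0.0077 under tunicamycin, which differ by 0.02. For Phlda3 the vehicle libraries stood at 0.05 ± 0.01 and the tunicamycin libraries at -0.06 ± 0.01, without overlap and with a difference of -0.11. Over 3399 genes the same difference ran from -0.17 at the 5th percentile to 0.21 at the 95th, so both genes lay inside this range. For Phlda3 this ratio moved with the treatment, and the difference was smaller in TPM (38.1% lower) than in CPM (44.6% lower). Its part in the level was not tested further.

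Against the whole table, edgeR's quasi-likelihood test called 2 genes higher and 1 lower in tunicamycin, 0.0554% and 0.0277% of the 3613 tested. The groups did not overlap for 12.6% of the genes tested, and for 5.95% with tunicamycin lower. Since this contrast chose Ccng1 and Phlda3, nothing is read from these shares for them. The edgeR calls in both directions together made up 0.0830% of the genes tested, and 232 genes, or 6.42%, had an unadjusted p under 0.05 in that test. With the replicate number as a block, 14 passed as higher and 22 as lower.

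**Figure D2:**
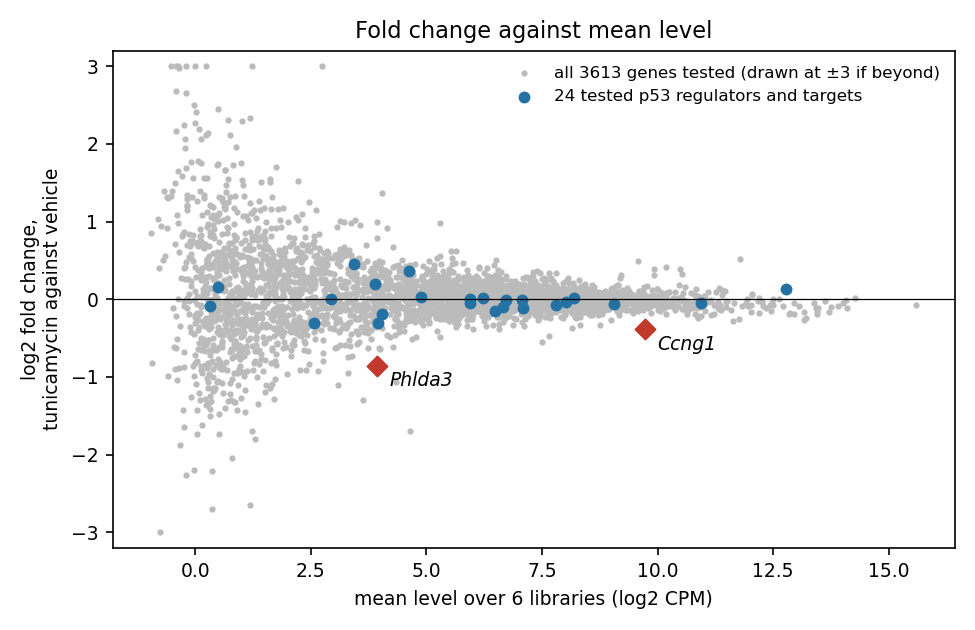
Log2 fold change of tunicamycin against vehicle (vertical axis) by mean level in log2 CPM over the 6 libraries (horizontal axis) for the 3613 genes tested in grey, the 24 tested p53 regulators and targets in blue, and Ccng1 and Phlda3 as red diamonds. Ccng1, at -0.39, lies below the narrow band of abundant genes, and Phlda3, at -0.85, lies where the scatter of all genes is wider. Since this contrast chose both genes, nothing is read from their places.

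The rest of the p53 pathway was described from lists of regulators and of targets by role. Of 77 other p53 targets listed, 24 had a row and 22 passed the filter on low counts, and edgeR called 0 higher and 0 lower. One of the 22 had an unadjusted p under 0.05, near the 6.42% of all genes tested, and DESeq2 and limma on log2(TPM + 1) also called 0. Over all 3613 genes tested, edgeR called 0.0830%, DESeq2 23 genes and this limma fit 1. So few calls make 0 likely in lists of this size, here and below, and nothing is read from it. The median log2 fold change of these 22 genes was -0.02, against 0.00070 over all genes tested, with 14 below 0 and 8 above. The groups did not overlap for 1 of the 22, against 12.6% of all genes tested. Trp53, Mdm2, Cdkn1a, Bax and Bbc3 were not analysed here, so the best known members of the pathway are missing from these counts.

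Among targets that act in cell cycle arrest, 8 of 15 were tested and 0 were called by edgeR, with 0 at an unadjusted p under 0.05, where the 6.42% of all genes would give fewer than 1, and 0 by DESeq2. Btg2, an antiproliferative cofactor of mRNA decay, was the most abundant of them, at 2014 ± 125 CPM in vehicle and 1945 ± 80.5 CPM in tunicamycin (SD, n = 3 each), with its log2 fold change at -0.05 (95% interval -0.18 to 0.08). Ier5, an immediate early gene, was at -0.06 (95% interval -0.21 to 0.10). Sfn, which encodes the 14-3-3 sigma protein, was at -0.03 (95% interval -0.21 to 0.15).

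Among targets that act in cell death, 4 of 18 were tested and 0 were called by edgeR, with 0 at an unadjusted p under 0.05 and 0 by DESeq2. Tnfrsf10b, a death receptor for the ligand TRAIL, was at 106 ± 11.9 CPM in vehicle and 105 ± 6.78 CPM in tunicamycin (SD, n = 3 each), with a 95% interval of -0.23 to 0.22 for its log2 fold change. Triap1, an inhibitor of apoptosis, had a 95% interval of -0.33 to 0.33. Pmaip1, which encodes the BH3-only protein Noxa, was at -0.19 (95% interval -0.81 to 0.43), a wide interval at its low level.

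Among repair targets, 2 of 11 were tested and 0 were called by edgeR, with 0 at an unadjusted p under 0.05 and 0 by DESeq2. Xpc, which recognises damage in nucleotide excision repair, was at -0.08 (95% interval -0.25 to 0.09), and Mgmt, which removes alkyl groups from guanine, at -0.31 (95% interval -1.45 to 0.83). Among targets in metabolism and stress, 8 of 33 were tested and 0 were called by edgeR, with 1 at an unadjusted p under 0.05, against 6.42% of all genes, and 0 by DESeq2. That one was Dgka, the diacylglycerol kinase that dampens T cell receptor signalling, at 6697 ± 212 CPM in vehicle and 7338 ± 112 CPM in tunicamycin (SD, n = 3 each). Its log2 fold change was 0.13 (95% interval 0.01 to 0.25; edgeR adjusted p = 0.70). Hexim1, an inhibitor of transcription elongation, was at 0.02 (95% interval -0.18 to 0.22), and Bloc1s2, a subunit of a complex for lysosome-related organelles, at -0.11 (95% interval -0.30 to 0.08).

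Of the tested targets, 13 had a mean of 5 log2 CPM or more, where precision was best, and their log2 fold changes ran from -0.11 to 0.13. Of 19 p53 regulators, 2 were tested and 0 were called by edgeR, with 0 at an unadjusted p under 0.05 and 0 by DESeq2. Trp53rka, which encodes a kinase that phosphorylates p53, was at -0.15 (95% interval -0.41 to 0.10), and Chek2, the checkpoint kinase that activates p53 after DNA breaks, at 0.20 (95% interval -0.38 to 0.78).

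**Figure D3:**
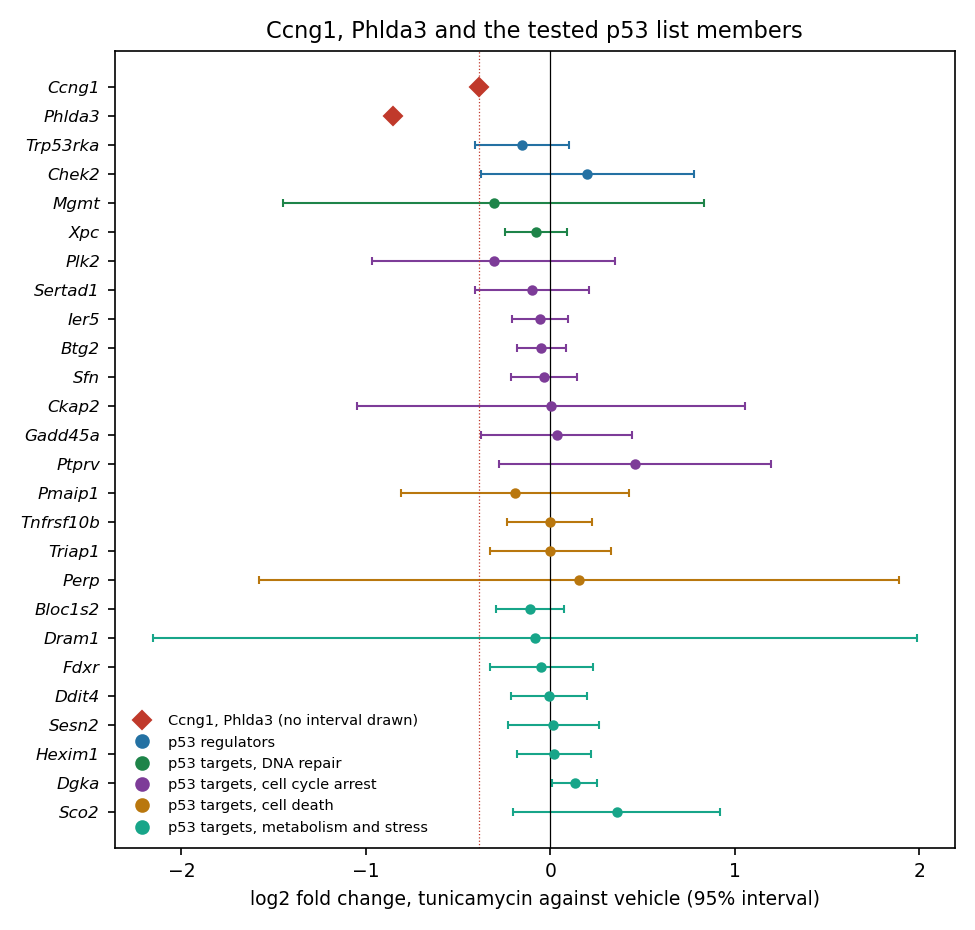
Log2 fold change of tunicamycin against vehicle (horizontal axis) for Ccng1 and Phlda3 (red diamonds, no interval drawn because this contrast chose them) and for the 24 tested p53 regulators and targets with 95% intervals, coloured by list; the dotted line marks Ccng1. The listed genes scatter around 0, with a median of -0.02 for the 22 targets, and the intervals of the rarer genes are wide.

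Relatives and partners of the 2 proteins were also looked up. Of the cyclin G and I family, Ccng2 and Ccni were not analysed here, and neither was Ccnk, another cyclin gene. Phlda1, a relative of Phlda3 with the same kind of domain, was at 2.61 ± 1.09 TPM in vehicle and 2.44 ± 0.423 TPM in tunicamycin (SD, n = 3 each), a level like that of Phlda3, with a log2 fold change of -0.15 (95% interval -0.72 to 0.42). Ppp2ca, the catalytic subunit of PP2A, was the 1 tested of 9 PP2A genes and was at -0.06 (95% interval -0.18 to 0.06). Of 24 genes of the Akt pathway, on which Phlda3 acts, 3 were tested and 0 were called by edgeR, with 0 at an unadjusted p under 0.05 and 0 by DESeq2. Foxo1, a transcription factor that Akt holds out of the nucleus, was at -0.03 (95% interval -0.14 to 0.09). Phlpp1, a phosphatase of Akt, was at 0.04 (95% interval -0.17 to 0.24). For both genes, differences beyond 0.24 on the log2 scale lay outside the intervals.

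The genes nearest in profile were found over the 6 libraries among those whose mean reached 5 log2 CPM, by the root mean square difference of log2 CPM after centring each gene on its own mean. For Ccng1 the 5 nearest of 1903 were Fbl (0.050), Rrs1 (0.050), Ccdc124 (0.057), B2m (0.065) and Bmyc (0.072), against a median of 0.22 over all genes compared. Fbl encodes the nucleolar methyltransferase fibrillarin, and B2m the light chain of class I histocompatibility molecules. B2m went from 10161 to 8443 CPM in the mean and Fbl from 483 to 384 CPM. For Phlda3 the 5 nearest of 1904 were Shprh (0.37), Gm14698 (0.38), Dmac1 (0.39), Srp54b (0.39) and Nop10 (0.40), against a median of 0.59. None lay as near to Phlda3 as the genes named for Ccng1 lay to Ccng1. Phlda3 itself, at a mean of 3.93 log2 CPM, was below the cut-off, so genes of its own level were not compared. Its few counts also widen all of its distances, and nothing is read from this contrast with Ccng1. Ccng1 and Phlda3 differed from each other by 0.41 on this measure, with 1838 genes nearer to Ccng1 and 6 nearer to Phlda3. This likeness is a description over 6 libraries, and genes that differ between the groups are near to Ccng1 by construction.

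**Figure D4:**
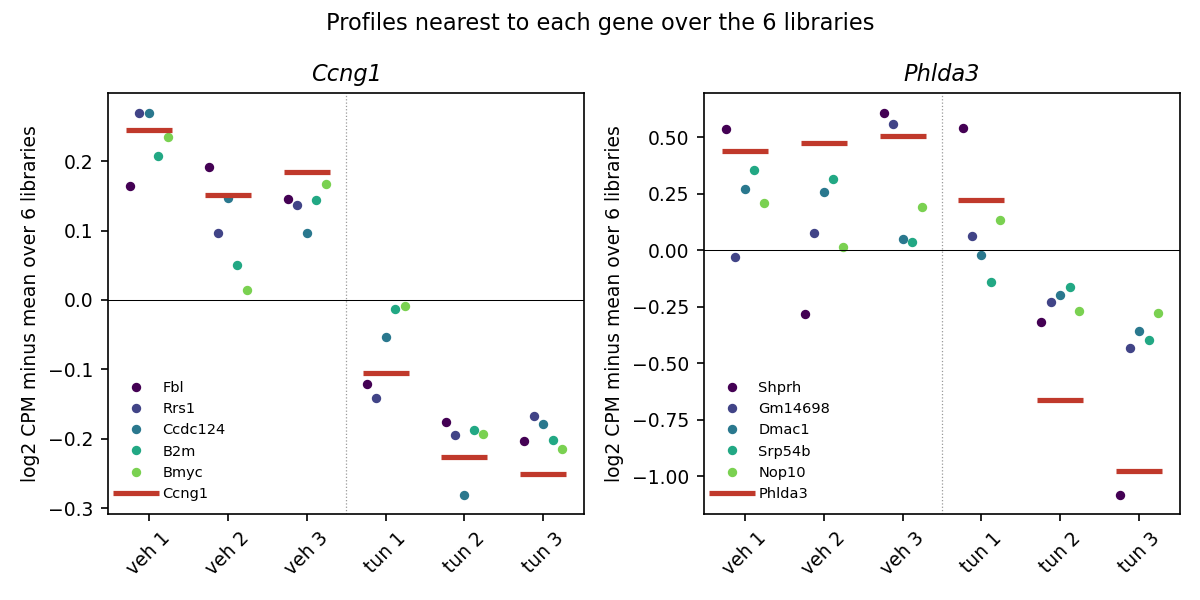
Log2 CPM minus the gene's mean over the 6 libraries (vertical axis) in each vehicle and tunicamycin library (horizontal axis) for Ccng1 and Phlda3 (red bars) and the 5 genes nearest to each (points). The genes around Ccng1 lie within 0.050 to 0.072 of it by root mean square, while those around Phlda3 do not reach its low values in tunicamycin replicates 2 and 3, apart from Shprh in replicate 3.

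Both fold changes were below 0 in all 17 alternative ways of processing the tables. That of Ccng1 ran from -0.43 to -0.35 and that of Phlda3 from -1.28 to -0.55, the last on the log2(TPM + 1) scale, which understates the change of low genes. The value for Phlda3 moved most with the choice of tunicamycin libraries. Since this contrast chose both genes, and each was lower in all 9 pairings, the kept sign is no support for the difference.

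**Figure D5:**
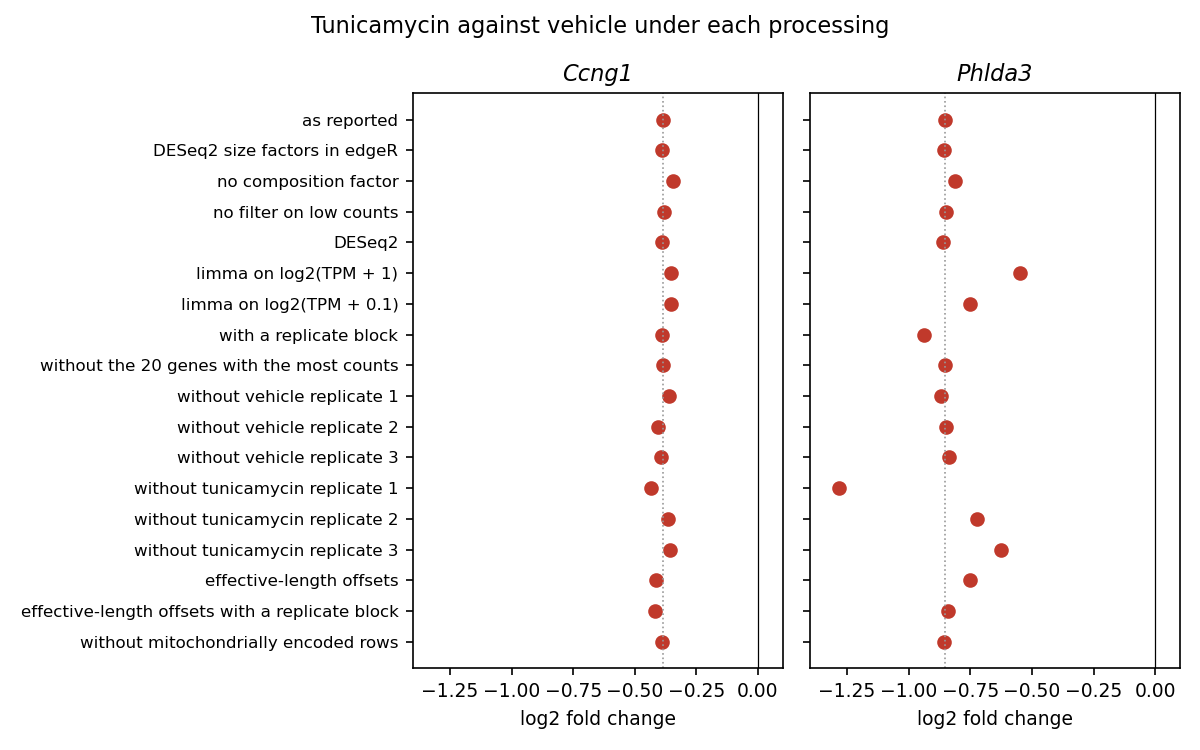
Log2 fold change of tunicamycin against vehicle (horizontal axis) for Ccng1 and Phlda3 as reported and under each of 17 alternatives (vertical axis); the dotted line marks the reported value. The Ccng1 values stay between -0.43 and -0.35, and the Phlda3 values spread from -1.28 without tunicamycin replicate 1 to -0.55 with limma on log2(TPM + 1).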

How the data were processed

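RNA of 3 vehicle and 3 tunicamycin libraries was made from 200 ng total RNA and read as pairs of 150 bp, per the labels' protocols. The authors deposited estimated counts per gene, partly fractional and not scaled to depth, and TPM values for the same rows. The build GRCm39 and the tools Salmon, bcl2fastq and DESeq2 appear without version or role, per the submitters' processing notes. The transcript annotation is not given in the sources used here. Of 13685 rows, 6932 were at 0 in every library, and 13627 identifiers matched a symbol. Positions are those of the annotation used here, on GRCm38, and none were converted.

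Counts were rounded, filtered with filterByExpr (3613 genes left), scaled with TMM and tested in R 4.3.3 with edgeR 4.0.16 (2-sided quasi-likelihood F test, robust, Benjamini-Hochberg over all genes tested, threshold 0.05). Log2 CPM used a prior count of 2. Alternatives were other scalings and filters, DESeq2 1.42.0, limma 3.58.1 on deposited TPM, leaving out libraries and a replicate block. Effective-length offsets and leaving out mitochondrial rows were chosen after seeing the data. The fit was tested on simulated data. Libraries of a group did not agree within sampling noise (chi-square per degree of freedom 14.9 to 32.5). The titles number the libraries but state no pairing between the groups. Deviations from the group means correlated across 1904 genes at 0.30, 0.31 and 0.32 within a number and from -0.23 to -0.05 between numbers. The negative values partly follow from centring 3 libraries on their own mean. The main fit left the replicate number out, and the block was run as an alternative.

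The members and gene lists were chosen with earlier results of these data known. Genes were named by rule: Ccng1 and Phlda3, per list the genes called and otherwise the 3 with the highest mean CPM, and the 5 nearest in profile; 1 gene that the rule names is not reported here. Intervals are 95%.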

Additional observations from a re-analysis of the deposited data

How the results depend on the processing

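The log2 fold changes of Ccng1 and Phlda3 kept their sign in all 17 alternatives. Their choice by this contrast made that likely beforehand, so it is not read as support. Leaving out each library in turn gave -0.43 to -0.36 for Ccng1 and -1.28 to -0.62 for Phlda3. With a replicate block they were -0.39 and -0.94, and with effective-length offsets -0.42 and -0.75. The 3 genes called in all became 16 without the filter on low counts, 23 with DESeq2, 36 with a replicate block, 1 with limma on log2(TPM + 1), 0 with effective-length offsets and 15 with those offsets and a replicate block. The offsets need counts in every library, so the 2 higher genes, at 0 in vehicle, were not tested there; for the others the cause was not tested. Without a library the number ran from 1 (without vehicle replicate 2) to 5 (without vehicle replicate 3). Of the p53 lists, 0 members were called in every one of the 17 alternatives, the replicate block included, and their median ran from -0.07 to 0.08, changing sign with scaling and also without vehicle replicate 2 (0.01) or 3 (0.0076); the -0.07 was without vehicle replicate 1. Over 29 listed genes, 470 of 493 values moved by less than the spread between replicates, and 82 changed sign, all uncalled. Counts of 84 to 195 limit what can be said of Phlda3.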
